A study of Mus musculus with 68 samples.

Results

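The latest gate of the knockout series, ERY-V-VI, was compared between GS-KO and wild type (WT) mouse bone marrow. The comparison holds 6 of the 68 RNA-seq libraries of the study, 3 of GS-KO and 3 of WT, as the labels define these groups. The labels call the gate reticulocytes and red blood cells. GS is not explained in them and is read here as glutamine synthetase, the product of Glul. They give no deleted allele, Cre driver, strain, age, sex or treatment for either group, and no treatment that both groups share. They do not say whether the 3 libraries of a group came from separate mice. Of 24059 gene symbols in the count table, 16394 had a count in these libraries and 9403 passed the filter on low counts and were tested.

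Glutamine synthetase joins ammonium to glutamate to make glutamine, a nitrogen donor for nucleotides and other products. In the last steps of red cell formation the cell fills with hemoglobin, expels its nucleus, and as a reticulocyte clears its mitochondria, ribosomes and much of its protein, partly through ubiquitin-conjugating enzymes made late in the lineage. Transcription ends with the loss of the nucleus, so the RNA of a reticulocyte is what was stored before that point and has not yet decayed.

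The 2 groups of libraries differed in make-up, and the sign of a fold change depended for many genes on the scaling. WT libraries held 4279540, 3131142 and 4729944 counts and GS-KO libraries 4442465, 7367470 and 8559052. Thinned to 3131142 counts, a WT library was expected to show 10096 to 10444 genes and a GS-KO library 12957 to 13155. The 10 most abundant genes took 31.9 to 32.1% of the counts in WT and 15.4 to 15.5% in GS-KO. Each fold change is therefore given on 2 scales, edgeR's trimmed mean of M values (TMM), which centres the bulk of genes, and the plain library total, to which the levels, given as CPM, are scaled. The median log2 fold change of all 9403 genes, GS-KO over WT, was 0.15 with TMM and 1.44 with library totals. A gene is called where edgeR's quasi-likelihood adjusted p was under 0.05, and "lower on both scales" or "higher on both scales" means called that way with each scaling.

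Libraries of 1 group were close to each other. Over genes with at least 20 counts in both libraries of a pair, the chi-square per degree of freedom was 5.74 to 6.26 within WT and 3.80 to 4.79 within GS-KO, where ERY-IV and ERY-VI of the study's stage series gave 12.1 to 91.6 and 29.1 to 98.1. The p-values below measure only this spread, which may be technical. With each triplicate summed to 1 library and the spread taken from the stage series, 0 genes were called by edgeR, 494 had an unadjusted p under 0.05, and the smallest adjusted p was 0.425. All values are sums over the RNA of a sorted population, so that fewer cells of a type and less RNA per cell cannot be told apart.

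Glul itself was about an order of magnitude lower in the GS-KO libraries. Glul (chr1:153899944-153909723, plus strand, GRCm38) had 247, 268 and 246 CPM in WT and 22.3, 23.6 and 24.0 CPM in GS-KO, so that the groups did not overlap. Its log2 fold change was -4.73 ± 0.09 (SE) with TMM, with an adjusted p of 1.63e-16, and -3.44 with library totals, the lowest on either scale among genes called at 2-fold or more whose groups did not overlap and whose mean reached 5 CPM. Counts are per gene and do not show which exons the remaining reads came from. In WT the Glul level was highest in this gate, at 254 ± 12.2 CPM (SD, n = 3), after 159 ± 7.44 in the gate before it, ERY-III-VI. The GS-KO means were 23.3 ± 0.882 and 19.2 ± 2.91 CPM in the same 2 gates, 14.9 ± 1.92 in ERY-I-II, and 98.8 ± 2.41 in the earliest progenitors, BFU-E, where WT had 122 ± 2.91. In CFU-E, the next progenitors, GS-KO had 36.0 ± 1.39 CPM and WT 86.0 ± 3.16. As a ratio, the GS-KO mean was thus nearest to WT in BFU-E and farthest from it in ERY-V-VI. The GS-KO BFU-E libraries also held more of the later genes Hba-a1, at 298 ± 15.2 CPM against 4.22 ± 1.25 in WT, and Slc4a1, at 247 ± 12.2 against 3.99 ± 1.09, and the part of this in their Glul level was not tested.

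Across all genes, a small group of genes with many counts was lower in GS-KO on either scale and a larger group with fewer counts was higher. With TMM 2110 genes (22.4%) were higher and 1924 (20.5%) lower, 42.9% in all, and with library totals 7209 (76.7%) were higher and 364 (3.87%) lower, 80.5% in all. On CPM the 3 libraries of one group lay apart from the 3 of the other in 84.5% of genes, with GS-KO higher in 80.3% and lower in 4.19%, so that groups without overlap were the rule. All 364 that were lower with library totals were also lower with TMM, and their median level was 310.0 CPM against 16.8 for all genes tested. All 2110 that were higher with TMM were higher with library totals, with a median level of 13.3 CPM. Genes with almost no WT counts passed the filter on low counts only through GS-KO. Counts of higher genes, here and in the lists below, follow in part from that filter. Another 879 genes (9.35%) were lower with TMM and higher with library totals. For these the direction rests on the scaling.

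**Figure D1:**
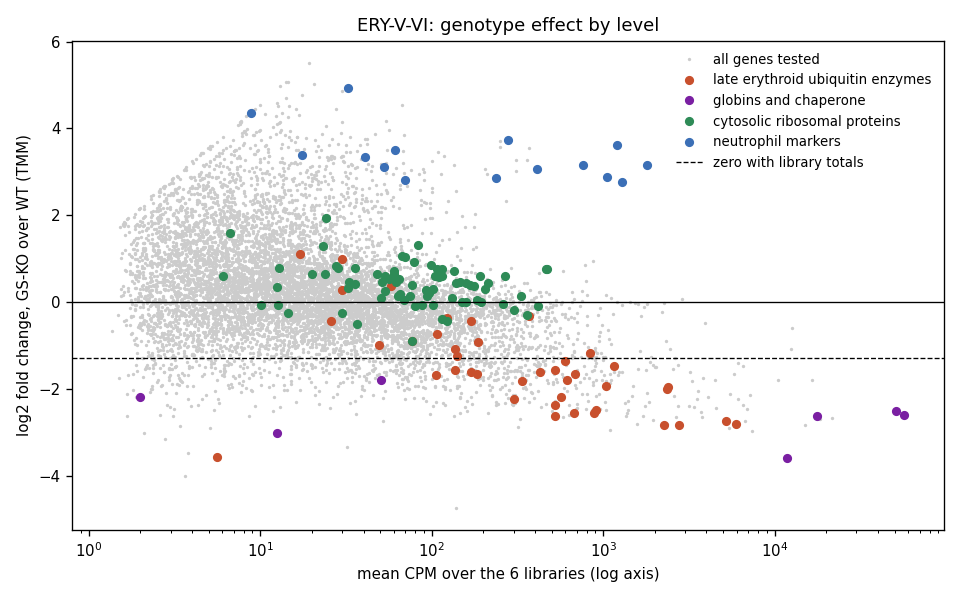
Each point is a gene, with its mean CPM over the 6 libraries (log axis) against its log2 fold change, GS-KO over WT, with TMM, and 4 gene lists in colour. The solid line is 0 with TMM and the dashed line is 0 with library totals, and genes with 3 or fewer counts summed over a group are left out. Globins and most late ubiquitin enzymes lie below the dashed line, and the neutrophil markers lie above the solid one.

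Globin transcripts, which make the oxygen carrier, took a smaller share of the GS-KO libraries. The share of counts on globin genes was 19.6, 19.8 and 19.6% in the WT libraries and 7.79, 7.69 and 7.82% in the GS-KO libraries. The groups did not overlap, with a difference of -11.9 percentage points and an exact permutation p of 0.10, two-sided, the smallest that 3 against 3 can give. Of the 7 globin and globin-chaperone genes tested, 6 were lower on both scales, against 3.87% of all genes tested, and their median log2 fold change was -2.60 with TMM and -1.30 with library totals. Hba-a1, an adult alpha globin, had 71166, 71422 and 70075 CPM in WT and 30844, 29823 and 31423 CPM in GS-KO. Its log2 fold change was -2.50 ± 0.02 (SE) with TMM, with an adjusted p of 2.87e-22, and -1.21 with library totals. Hbb-b1, an adult beta globin, had 80250.4, 81673 and 81106 CPM in WT and 32837, 33100 and 32567 CPM in GS-KO, with log2 fold changes of -2.60 and -1.30 on the same 2 scales. The beta and alpha chains were thus lower by similar amounts, and the count ratio of Hbb-b1 to Hba-a1 was 1.14 in WT and 1.07 in GS-KO.

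The second alpha gene moved further than the first. Hba-a2 (chr11:32296489-32297298, plus strand) had 19555, 19740.1 and 19588 CPM in WT and 4065, 3865 and 4070.0 CPM in GS-KO, a log2 fold change of -3.59 ± 0.02 (SE) with TMM, with an adjusted p of 9.54e-23, and -2.29 with library totals. Within a library, where the scaling cancels, the count ratio of Hba-a2 to Hba-a1 was 0.277 in WT and 0.130 in GS-KO (exact permutation p = 0.10). Hbb-b2 to Hbb-b1 was 0.312 and 0.307. Both pairs are near-identical copies, and how reads were divided between them is not given in the sources used here, so single-copy values are uncertain. Hbq1a, a theta globin, had 20.1, 21.1 and 15.9 CPM in WT and 7.43, 5.29 and 4.91 CPM in GS-KO and was lower on both scales (-3.0 and -1.71).

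**Figure D2:**
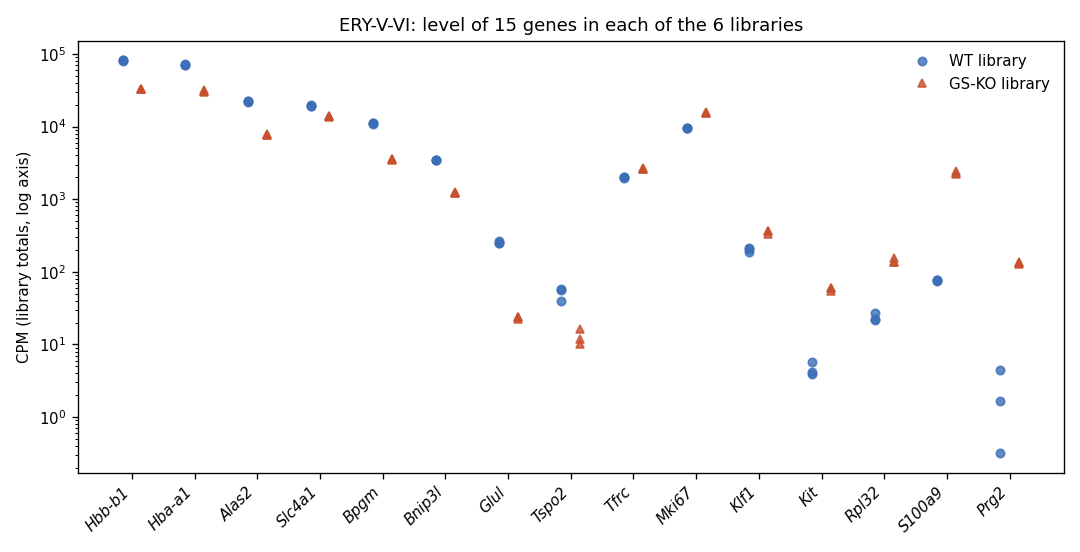
CPM on library totals (log axis) of 15 genes in each of the 3 WT and 3 GS-KO libraries of ERY-V-VI. From Hbb-b1 to Tspo2 every GS-KO library lies below every WT library, and from Tfrc to Prg2 every GS-KO library lies above, including Tfrc, Mki67 and Klf1, which are lower with TMM.

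The erythroid enzyme that starts heme synthesis was lower in GS-KO and its general form was higher. Alas2, the erythroid enzyme for the first step of heme synthesis (chrX:150547375-150570638, plus strand), had 21891, 22622 and 22556 CPM in WT and 7755, 7803 and 7742 CPM in GS-KO. Its log2 fold change was -2.82 ± 0.02 (SE) with TMM, with an adjusted p of 5.64e-23, and -1.53 with library totals. Alas1, the form of the same enzyme used by most other cells, had 3.51, 6.39 and 2.11 CPM in WT and 97.7, 115 and 102 CPM in GS-KO and was higher on both scales (3.50 and 4.79). The erythroid and the general form thus moved in opposite directions, neither with any overlap between the groups. Fech, which puts iron into heme, and Slc25a37, which carries iron into mitochondria, were lower on both scales, at -2.36 and -1.06 for Fech and -2.14 and -0.84 for Slc25a37. Cpox, a middle enzyme of the path, had 687, 700.4 and 786 CPM in WT and 1250.2, 1232 and 1216 CPM in GS-KO and so was lower with TMM (-0.53) and higher with library totals (0.77). Of 25 heme genes tested 7 were lower on both scales and 2 higher on both, against 3.87 and 22.4% of all genes, with a median of -0.75 with TMM and 0.55 with library totals.

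Tspo2, a relative of the mitochondrial translocator protein made in late erythroid cells, was the fourth lowest of the genes named for their size of change. It had 39.5, 56.8 and 58.6 CPM in WT and 16.4, 10.04 and 11.8 CPM in GS-KO, without overlap and at a low level, and a log2 fold change of -3.33 ± 0.23 (SE) with TMM, with an adjusted p of 5.30e-09, and -2.04 with library totals. Iron genes differed among themselves. Ferritin light chain Ftl1, an iron store, had 1870.1, 1785 and 1868 CPM in WT and 891, 953 and 948 CPM in GS-KO and fell on both scales (-2.28 and -0.98), as did Ncoa4, the receptor that delivers ferritin for breakdown (-2.45 and -1.16), and Iscu, the scaffold of iron-sulfur clusters (-2.62 and -1.33). The transferrin receptor Tfrc, the main route of iron entry, had 1927, 2039.8 and 2017 CPM in WT and 2628, 2689 and 2571 CPM in GS-KO, lower with TMM at -0.90 and higher with library totals at 0.40. In the iron list 5 of 24 genes tested were lower on both scales and 1 was higher on both, against 3.87 and 22.4% of all genes. With library totals 17 of the 24 were higher, near the 76.7% of all genes.

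The upstream sequences of 4 of the 12 lowest genes are shown because GATA1 and KLF1 are the best known regulators of late erythroid genes. Of these, 3 hold 1 of the 2 motifs searched, and Hba-a2 holds neither of those 2. Each is the part of RefSeq's promoter window (build GRCm38.p6) that lies before the gene as annotated by GENCODE M21, written in the gene's direction. Capitals mark AGATAA, a motif that GATA1 binds, or CCNCNCCC, a motif of the KLF1 type, on either strand, and the 2 motifs do not overlap here. Other forms of these motifs, such as the TGATAA in the Hba-a2 stretch, were not searched or marked.
Alas2, chrX:150547167-150547374, plus strand: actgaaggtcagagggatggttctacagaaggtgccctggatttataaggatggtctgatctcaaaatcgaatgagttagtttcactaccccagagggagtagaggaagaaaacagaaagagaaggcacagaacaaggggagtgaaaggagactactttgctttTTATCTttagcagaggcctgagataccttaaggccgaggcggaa
Tspo2, chr17:48451523-48451751, minus strand: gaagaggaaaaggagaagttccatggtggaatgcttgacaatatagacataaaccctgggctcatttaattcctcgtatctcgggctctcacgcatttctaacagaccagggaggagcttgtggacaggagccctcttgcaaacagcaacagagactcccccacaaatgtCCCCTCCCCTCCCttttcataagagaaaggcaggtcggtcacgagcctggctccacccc
Ube2l6, chr2:84798578-84798827, plus strand: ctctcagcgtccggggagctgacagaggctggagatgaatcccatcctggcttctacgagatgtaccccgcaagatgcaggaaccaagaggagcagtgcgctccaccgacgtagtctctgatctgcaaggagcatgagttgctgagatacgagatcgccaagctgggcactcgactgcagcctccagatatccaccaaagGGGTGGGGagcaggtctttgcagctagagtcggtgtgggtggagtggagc
Hba-a2, chr11:32296242-32296488, plus strand: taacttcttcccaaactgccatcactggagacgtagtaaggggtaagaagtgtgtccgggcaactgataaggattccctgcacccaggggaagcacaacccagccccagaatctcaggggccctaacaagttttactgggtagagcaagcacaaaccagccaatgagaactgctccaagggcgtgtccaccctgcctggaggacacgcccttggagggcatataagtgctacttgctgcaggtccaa
The Alas2 stretch holds 1 AGATAA, on the reverse strand 86 bases before the RefSeq start, the Tspo2 stretch 2 overlapping copies of CCNCNCCC and the Ube2l6 stretch 1. Of the 10 lowest genes with such a stretch, 1 held AGATAA, 5 held CCNCNCCC, and Hba-a2, Hbq1a, Bpgm and Dcaf12 held neither. These stretches leave out bases inside the annotated gene. In the full 250 bases, used for the shares that follow, Bpgm held 1 CCNCNCCC and Alas2 held 4. In the 250 bases before the RefSeq start, AGATAA stood in 6.62% of 272 matched genes that were lower on both scales, in 5.66% of 7188 matched genes tested and in 10.3% of all 27025 promoters. CCNCNCCC stood in 68.8, 64.3 and 45.6%. The motif shares of the lower genes were thus near those of all genes tested, and a match of letters is a description, not a site.

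Genes of the red cell membrane and its skeleton differed to unequal degrees, and the direction of many rested on the scaling. Epb4.1, protein 4.1 of the membrane skeleton, had 26788, 26614 and 26489.5 CPM in WT and 10077, 9969 and 10121 CPM in GS-KO, with a log2 fold change of -2.70 ± 0.01 (SE) with TMM, with an adjusted p of 2.33e-23, and -1.41 with library totals. Slc4a1, the anion exchanger band 3, had 19157, 19359 and 19474 CPM in WT and 13668, 13744 and 13973 CPM in GS-KO and a smaller change of -1.78 and -0.49. The ratio of Epb4.1 to Slc4a1 counts was 1.38 in WT and 0.729 in GS-KO (exact permutation p = 0.10). Ank1, the ankyrin that anchors band 3, had 2622, 2664 and 2579.7 CPM in WT and 2594, 2702 and 2628 CPM in GS-KO, lower with TMM (-1.28) and not called with library totals (0.01). Rhag, of the Rh complex that conducts ammonia and carbon dioxide, was lower with TMM (-1.05) and higher with library totals (0.24). With TMM 25 of 27 membrane and skeleton genes were lower, against 20.5% of all genes, with a median of -1.13. With library totals 9 were lower and 13 higher, against 3.87 and 76.7% of all genes, with a median of 0.16. The genes lower on both scales were thus 9 of 27, against 3.87% of all genes.

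Bpgm, which makes the 2,3-bisphosphoglycerate that tunes the oxygen affinity of hemoglobin, stood apart from the other genes of glucose breakdown. Bpgm (chr6:34476207-34505613, plus strand) had 11320.1, 10910.1 and 11240.5 CPM in WT and 3435, 3539.6 and 3594 CPM in GS-KO, with a log2 fold change of -2.96 ± 0.02 (SE) with TMM, with an adjusted p of 3.68e-21, and -1.66 with library totals. Pkm, a pyruvate kinase of most tissues other than red cells, had 13.1, 9.58 and 7.19 CPM in WT and 168, 174 and 169.9 CPM in GS-KO and rose on both scales (2.81 and 4.1). Pfkfb3 and Pfkfb4, which set the level of an activator of glycolysis, rose as well, by 2.31 and 3.60 and 3.54 and 4.82. Of 21 glycolysis genes tested 11 were higher on both scales, against 22.4% of all genes, and Bpgm was the only one lower on both. The white cell markers given below moved the same way as Pkm and Pfkfb3, and the part of such cells in these values was not tested.

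Among antioxidant genes some were lower and some higher on both scales. Cat, the catalase of red cells, had 2443, 2461 and 2419 CPM in WT and 986, 953 and 984 CPM in GS-KO and fell on both scales (-2.62 and -1.33). Gpx1, a glutathione peroxidase, had 7875, 8152 and 7908 CPM in WT and 4189, 4283 and 4068 CPM in GS-KO and fell by -2.23 and -0.93. Gclm, a subunit of the enzyme that joins glutamate to cysteine in glutathione synthesis, fell by -1.72 and -0.42. Prdx5, a peroxiredoxin, had 1.87, 4.79 and 1.27 CPM in WT and 75.6, 86.1 and 82.4 CPM in GS-KO and rose by 3.76 and 5.05, and Gstm1, a glutathione transferase, rose by 2.71 and 4.0. In all 7 of 36 genes tested were lower and 6 higher on both scales, against 3.87 and 22.4% of all genes.

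The ubiquitin enzymes of late erythroid cells were the list with the largest number of members lower on both scales. Of 41 genes tested 25 were lower on both scales and 2 higher on both, against 3.87 and 22.4% of all genes. Their median was -1.62 with TMM and -0.32 with library totals. The share lower on both scales was larger among globin genes (6 of 7) and red cell defining markers (11 of 12). Ube2o, which tags unneeded proteins in reticulocytes, had 7493, 7665 and 7516 CPM in WT and 2782, 2874 and 2705 CPM in GS-KO. Its log2 fold change was -2.73 ± 0.02 (SE) with TMM, with an adjusted p of 1.03e-20, and -1.44 with library totals. Rnf10, a ubiquitin ligase, had 8740.0, 8888 and 8791 CPM in WT and 3063, 3087 and 3109 CPM in GS-KO (-2.81 and -1.51), and Dcaf12, a substrate receptor of a cullin ligase, had 3279, 3432 and 3415 CPM in WT and 1166, 1134 and 1177 CPM in GS-KO (-2.84 and -1.54). Ube2l6, the conjugating enzyme for the ubiquitin-like ISG15, had 4057, 4106 and 4221 CPM in WT and 1448, 1404 and 1411 CPM in GS-KO (-2.83 and -1.54). These 4 genes differed from WT by nearly the same factor, and in none did the groups overlap. Trim58, a ubiquitin ligase with a role in enucleation, changed less (-1.82 and -0.53). Of the proteasome regulators Psme3 fell on both scales (-2.30 and -1.0), while 2 of 46 proteasome genes were lower and 9 higher on both, near the shares over all genes.

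Mitochondrial clearance genes were often lower on both scales, and respiratory chain genes were not. Bnip3l (Nix), the receptor through which reticulocytes clear mitochondria, had 3460.4, 3509 and 3471 CPM in WT and 1205, 1227 and 1254 CPM in GS-KO. Its log2 fold change was -2.80 ± 0.03 (SE) with TMM, with an adjusted p of 5.66e-20, and -1.50 with library totals. Pink1, a kinase that marks damaged mitochondria, and Gabarapl2, a coat protein of autophagosomes, fell on both scales by -2.54 and -1.25 and -2.58 and -1.29. Fundc1, another mitophagy receptor, had 0.701, 0.319 and 0 CPM in WT and 11.5, 11.1 and 9.93 CPM in GS-KO and rose by 3.69 and 4.93. Across 37 mitophagy and autophagy genes 15 were lower and 6 higher on both scales. Of 72 nuclear-encoded respiratory chain genes 0 were lower and 7 higher on both, with a median of -0.01 with TMM. Over all genes the shares were 3.87% lower and 22.4% higher on both. Of 25 genes of the tricarboxylic acid cycle 8 were higher on both scales, among them fumarase Fh1 (1.85 and 3.14), and 1 was lower on both, pyruvate carboxylase Pcx (-1.79 and -0.49).

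**Figure D3:**
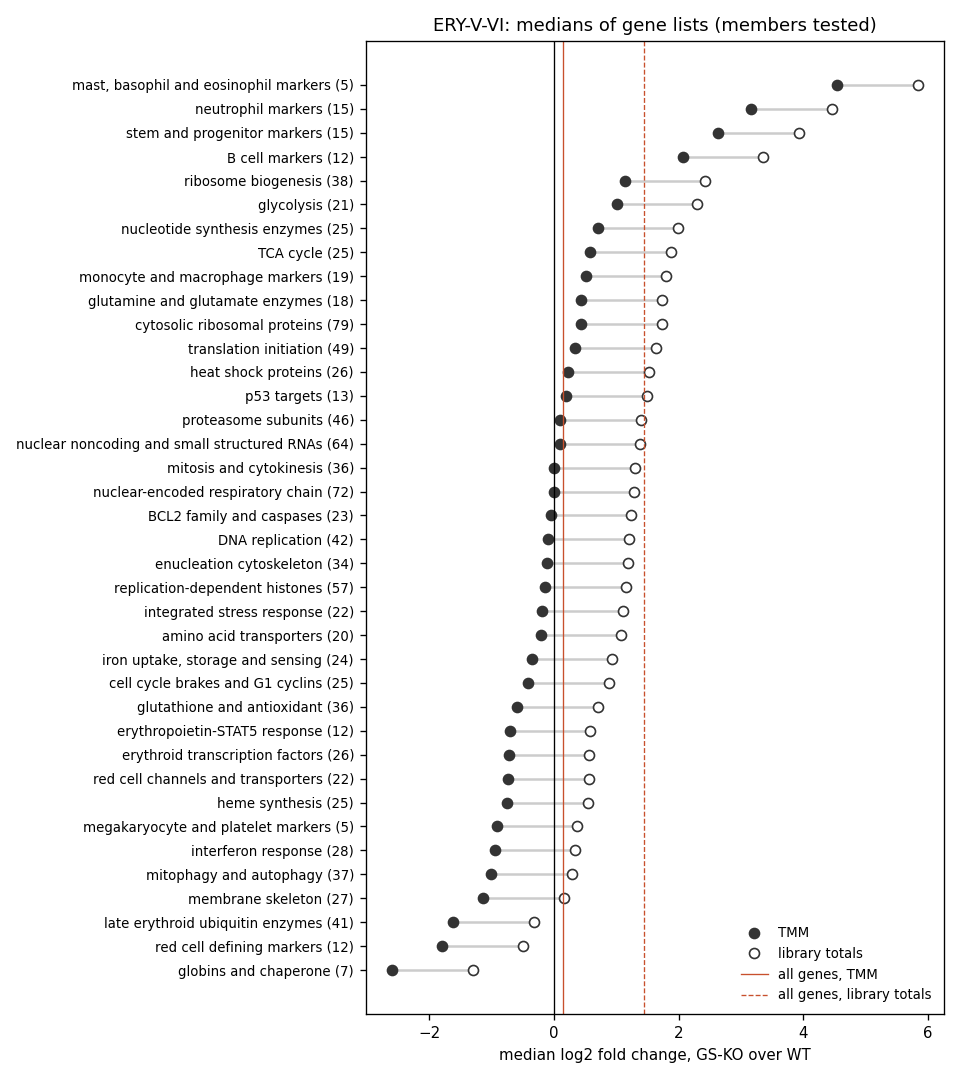
Median log2 fold change, GS-KO over WT, of each gene list with at least 5 members tested (number in brackets), with TMM (filled) and with library totals (open). Vertical lines mark 0 and the medians of all genes tested, 0.15 and 1.44, and the globin, red cell and late ubiquitin lists lie to the left of 0 on both scales.

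The regulators of the lineage gave 3 patterns. Gata1, the master regulator of erythroid genes, had 83.2, 78.9 and 104 CPM in WT and 154, 159.8 and 154 CPM in GS-KO, lower with TMM (-0.49) and higher with library totals (0.81). Klf1, its partner at globin and membrane genes, had 186, 209.8 and 208 CPM in WT and 326, 366 and 363 CPM in GS-KO, again lower with TMM (-0.49) and higher with library totals (0.81). Foxo3, a factor of late maturation and antioxidant defence, had 699.6, 733 and 704 CPM in WT and 499, 536 and 520.0 CPM in GS-KO and fell on both scales (-1.75 and -0.46). Myb, a factor of immature progenitors, had 11.4, 14.4 and 11.8 CPM in WT and 189.8, 201 and 177 CPM in GS-KO and rose on both scales (2.63 and 3.93). Epor, the erythropoietin receptor, had 98.6, 117 and 92.4 CPM in WT and 76.5, 69.1 and 67.8 CPM in GS-KO (-1.82 and -0.53), and Bcl2l1, the survival protein that erythropoietin maintains, had 3173, 3334 and 3309 CPM in WT and 1191, 1143 and 1169.5 CPM in GS-KO (-2.78 and -1.49). Both were lower on both scales, Bcl2l1 by more. Kit, the stem cell factor receptor of early progenitors, had 3.97, 5.75 and 4.23 CPM in WT and 59.0, 60.5 and 54.6 CPM in GS-KO and rose by 2.37 and 3.66. In the list of 26 erythroid transcription factors and cofactors 6 were lower and 2 higher on both scales, against 3.87 and 22.4% of all genes.

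Ratios to Slc4a1 within each library put these genes in an order that no scaling changes. Against Slc4a1, Glul was 0.129, Tspo2 0.347, Bpgm 0.442, Alas2 0.487, Bnip3l 0.495 and Hba-a1 0.607 times its WT ratio. Tfrc was 1.85, Mki67 2.27, Klf1 2.45 and Gata1 2.47 times. In each of these 10 ratios the groups did not overlap (exact permutation p = 0.10). Foxo3 and Epor kept ratios of 1.02 and 0.971 times, with exact permutation p of 0.5 and 0.7. Neighbours in that order, such as Alas2 and Bnip3l or Klf1 and Gata1, were not tested against each other.

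Genes of cell division stood at high levels in both groups of a gate labelled as reticulocytes and red cells. Mki67, a protein of cycling nuclei, had 9686, 9627 and 9471 CPM in WT and 15927, 15427 and 15311 CPM in GS-KO, lower with TMM (-0.60) and higher with library totals (0.70). Top2a, the topoisomerase of dividing cells, had 835, 819.8 and 804 CPM in WT and 2046, 2037 and 2009.7 CPM in GS-KO and was called with library totals (1.31) and not with TMM (0.01). Nusap1 and Ube2c, which act late in mitosis, fell on both scales, by -1.66 and -0.36 and -1.64 and -0.35. In the lists 2 of 36 mitosis genes were lower and 2 higher on both scales, and 0 of 42 replication genes were lower and 1 higher on both. Over all genes the shares were 3.87% lower and 22.4% higher on both scales. Of 57 replication-dependent histone genes 21 were lower with TMM and 53 higher with library totals, against 20.5 and 76.7% of all genes. Among these histone genes 0 were called the same way on both scales. Of the cell cycle regulators Ccnd2 and Cdk6, which drive entry into the cycle, rose by 2.34 and 3.63 and 2.51 and 3.80, and Gadd45a, a growth arrest gene, fell by -2.03 and -0.74.

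Many ribosome genes were higher in GS-KO on both scales. Rpl32, a protein of the large ribosomal subunit, had 22.4, 26.8 and 21.6 CPM in WT and 138, 137 and 153 CPM in GS-KO and a log2 fold change of 1.31 ± 0.14 (SE) with TMM, with an adjusted p of 1.77e-06, and 2.61 with library totals. Of 79 cytosolic ribosomal protein genes tested 37 were higher on both scales against 22.4% of all genes, with a median of 0.43 with TMM, and 0 were lower on both. Another 5 were lower with TMM, and all 79 were higher with library totals. Npm1, a nucleolar chaperone, had 39.0, 44.4 and 46.3 CPM in WT and 246, 259 and 256 CPM in GS-KO (1.26 and 2.55), and Ncl, nucleolin, rose by 0.86 and 2.15. In all 19 of 38 ribosome biogenesis genes were higher on both scales and 0 lower on both, against 22.4 and 3.87% of all genes. Some translation factors went the other way. Pabpc1, which binds poly(A) tails, had 31283, 31154 and 31375 CPM in WT and 12162, 12029 and 11989 CPM in GS-KO and fell on both scales (-2.67 and -1.37), as did Eif5 (-2.38 and -1.09) and the heme-regulated kinase Eif2ak1 (-1.65 and -0.36).

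Of 18 enzymes tested that make or use glutamine and glutamate, 6 were higher on both scales, against 22.4% of all genes, and Glul was the 1 that was lower. Of the higher ones Prodh, Bcat2 and Psat1 had only 4, 6 and 12 counts summed over WT. They passed the filter on low counts through GS-KO, where they are high, so this count follows in part from the filter. Glud1, glutamate dehydrogenase, had 10.7, 7.35 and 6.13 CPM in WT and 47.0, 45.9 and 45.9 CPM in GS-KO and rose by 1.22 and 2.51. Prodh, proline dehydrogenase, had 0, 0 and 0.846 CPM in WT and 11.03, 11.1 and 7.59 CPM in GS-KO and rose on both, from a WT level of a few counts.

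Nucleotide synthesis, which draws on the amide of glutamine, had 11 of 25 genes tested higher on both scales and 0 lower on both. The shares over all genes were 22.4 and 3.87%. The median of the list was 0.70 with TMM. Cad, the first enzyme of pyrimidine synthesis, had 11.7, 14.7 and 9.73 CPM in WT and 61.2, 60.5 and 61.1 CPM in GS-KO (1.06 and 2.36). Atic, at the end of purine synthesis, rose by 1.95 and 3.24. Among amino acid carriers Slc1a5, a glutamine importer, had 239.5, 273 and 272 CPM in WT and 239, 217 and 221 CPM in GS-KO and fell on both scales (-1.51 and -0.21), though GS-KO replicate 1 lay within 1 CPM of WT replicate 1. Slc7a5, a large neutral amino acid exchanger, had 714, 673 and 679 CPM in WT and 480.1, 487 and 503 CPM in GS-KO and fell by -1.78 and -0.49. Slc38a1, another glutamine carrier, had 6.08, 7.03 and 3.81 CPM in WT and 45.5, 48.2 and 57.2 CPM in GS-KO and rose by 1.89 and 3.19. Of 20 carriers 3 were lower and 5 higher on both scales, against 3.87 and 22.4% of all genes.

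Stress and interferon lists were mixed. Rsad2, an antiviral enzyme induced by interferon, had 6282, 6158 and 6316 CPM in WT and 2957, 2762 and 2782 CPM in GS-KO and fell on both scales (-2.44 and -1.14), as did Oas3 (-2.33 and -1.03) and Isg15 (-1.96 and -0.67), while Irf1, a transcription factor of the response, rose from 0, 0.639 and 1.27 to 12.8, 9.77 and 15.7 CPM. Of 28 interferon genes tested 8 were lower and 4 higher on both scales, against 3.87 and 22.4% of all genes. Ppp1r15a, the phosphatase subunit that ends the integrated stress response, had 1369, 1396 and 1343 CPM in WT and 1035, 1097 and 1038 CPM in GS-KO and fell on both scales (-1.67 and -0.37). Of that response's genes 2 of 22 were lower and 5 higher on both, the latter near the share over all genes.

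Markers of white cells and their precursors were higher in every GS-KO library. All 15 neutrophil markers tested were higher on both scales, against 22.4% of all genes, and their summed level was 637 to 669 CPM in WT and 13866 to 14049 CPM in GS-KO. S100a9, a calprotectin subunit of neutrophils, had 77.1, 75.1 and 77.2 CPM in WT and 2212, 2306 and 2425 CPM in GS-KO. Its log2 fold change was 3.62 ± 0.05 (SE) with TMM, with an adjusted p of 8.22e-18, and 4.92 with library totals. Mpo, the myeloperoxidase of their granules, had 138, 144 and 159 CPM in WT and 2423, 2471 and 2420.1 CPM in GS-KO and rose by 2.76 and 4.05. Of 19 monocyte and macrophage markers tested 7 were higher on both scales, with sums of 162 to 189.6 and 1374 to 1423 CPM. B cell markers summed to 7.98 to 12.7 and 131 to 141 CPM, with 4 of 15 at 0 in all WT libraries. Such genes pass the filter on low counts only through GS-KO, so their calls are not counted here. Mast, basophil and eosinophil markers summed to 1.90 to 7.03 and 214 to 239.5 CPM, with 10 of 14 at 0 in all WT libraries, the mast cell gene Cpa3 and the basophil gene Mcpt8 among them, and 3, Fcer1a, Cma1 and Tpsb2, at 0 in all GS-KO libraries too. T and NK cell markers, of which the T cell receptor genes Cd3e, Cd3d and Cd3g were at 0 in all WT libraries, summed to 2.57 to 7.03 and 37.7 to 41.7 CPM, and stromal and endothelial markers to 2.87 to 5.61 and 18.3 to 32.4 CPM. Megakaryocyte and platelet markers summed to 28.5 to 43.7 and 61.9 to 65.8 CPM. Of 5 tested 1 was higher on both scales and 2 were lower with TMM. Their median log2 fold change was -0.92 with TMM and 0.37 with library totals. In all WT libraries 9 of the 15 markers, including the platelet gene Pf4, were at 0. Sums without overlap were found for each of these lists. On CPM 80.3% of all genes tested were likewise higher in GS-KO without overlap. The part of cells of these types in the results above was not tested.

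The genes with the highest fold changes came from low WT levels. Fn1, fibronectin, had 0.701, 0 and 0.211 CPM in WT and 46.6, 36.8 and 31.0 CPM in GS-KO and a log2 fold change of 5.51 ± 0.56 (SE) with TMM, with an adjusted p of 7.39e-07, and 6.76 with library totals. Hdc, which makes histamine, had 0, 1.28 and 0 CPM in WT and 26.8, 30.1 and 29.0 CPM in GS-KO (5.06 and 6.32). Mmp8, the collagenase of neutrophils, had 0.935, 1.92 and 0 CPM in WT and 66.2, 70.0 and 55.3 CPM in GS-KO (4.94 and 6.22), and Prg2, the major basic protein of eosinophils, had 4.44, 0.319 and 1.69 CPM in WT and 136, 128 and 131 CPM in GS-KO (4.54 and 5.83). The other 8 of the 12 highest were Pstpip2, Palm, Mical1, Lpgat1, Ubl3, Apobr, Arhgap15 and Hsd17b11, all under 2 CPM in each WT library. Another 69 called genes with a mean of at least 5 CPM had 3 or fewer counts summed over WT, 15 of them none. Epx, eosinophil peroxidase, had 0 counts in WT and 77.4, 65.7 and 67.1 CPM in GS-KO, at least 279-fold higher against a floor of 3 counts over the group. The 12 lowest were Glul, Hba-a2, Ubb, Tspo2, Hbq1a, Bpgm, Fam220a, Fam46c, Gdpd3, Dcaf12, Ube2l6 and Alas2. Ubb, a polyubiquitin gene, rested on few counts, with 6.78, 10.5 and 10.4 CPM in WT and 2.25, 2.17 and 1.29 CPM in GS-KO.

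White cell markers were not particular to the latest gate. In ERY-III-VI the neutrophil sum was 263 to 269.8 CPM in WT and 10283 to 10364 CPM in GS-KO. S100a8 stood at 671 ± 17.7 CPM in GS-KO BFU-E against 1.85 ± 0.740 in WT BFU-E, and at 1454 ± 5.69 against 65.3 ± 10.6 in ERY-V-VI. In the stage series, which holds no knockout, the S100a8 mean ranged from 1.85 ± 1.60 CPM in CFU-E (n = 5) to 717 ± 820 CPM in ERY-I (n = 7). Single ERY-I libraries had from 0 to 1603 CPM.

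With TMM, red cell genes were lower in GS-KO by more in ERY-V-VI than in ERY-III-VI, where some were lower and some higher. Titles and source names differ for the earlier gate, whose title runs to ERY-VI and whose source name gives polychromatic and orthochromatic erythroblasts only. Hba-a1 averaged 17189 ± 95.8 CPM in WT and 21559 ± 843 in GS-KO in ERY-III-VI, and 70887 ± 715 and 30697 ± 810.1 in ERY-V-VI (SD, n = 3). The 12 red cell defining markers together gave 94310.1 to 95007 CPM in WT and 96864 to 98386 in GS-KO in the earlier gate, and 238420 to 240801 and 114750 to 115861 in the later one. WT was thus much higher in the later gate than in the earlier one and GS-KO little higher. The sum in ERY-III-VI holds opposite differences, since 7 of the 12 markers had a lower mean CPM in GS-KO and 5 a higher one. Slc4a1 averaged 17544 ± 185 CPM in WT and 14216 ± 93.9 in GS-KO there, a log2 fold change of -0.48 with TMM. Hba-a2 had -0.58, Klf1 -0.52, Epor -1.25 and Tspo2 -1.88 in that gate, whereas Epb4.1 had 0.25. The genes lower on both scales in ERY-V-VI had a median of -0.31 in ERY-III-VI, where that of all genes tested was 0.03. A test of the difference between the 2 genotype effects, over 12 libraries and 10354 genes, called 990 genes (9.56%) higher and 1534 (14.8%) lower in ERY-V-VI with TMM, 24.4% in all, and 5665 (54.7%) and 421 (4.07%) with library totals, 58.8% in all. All 12 red cell markers had a lower effect in ERY-V-VI with TMM, and with library totals 8 did while 3 had a higher one. For Alas2 the log2 fold change was -0.00 in ERY-III-VI and the difference -2.75, and for Bpgm 0.51 and -3.40. Of the late ubiquitin enzymes 33 of 41 had a lower effect with TMM and 20 with library totals, where 14 had a higher one. Of the neutrophil markers 12 of 15 had a lower effect with TMM and 8 with library totals. Mitosis genes had a higher effect in 26 of 36 cases, histone genes in 38 of 58 and ribosomal protein genes in 34 of 79 with TMM, and in 34, 55 and 79 with library totals. The 2 gates' titles overlap in ERY-V and ERY-VI, but they share no library.

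**Figure D4:**
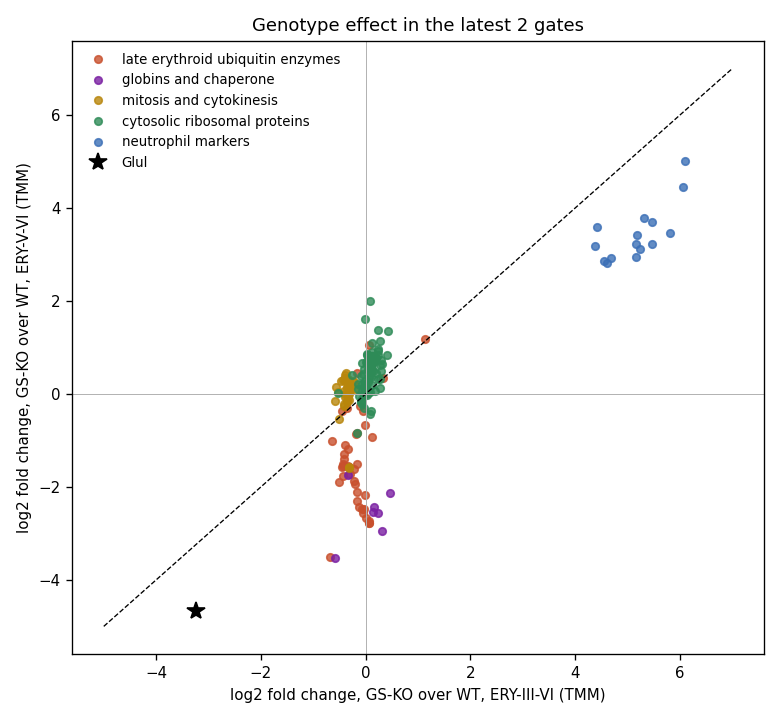
Log2 fold change, GS-KO over WT, with TMM over the 12 libraries, in ERY-III-VI (horizontal) and ERY-V-VI (vertical), for 5 gene lists and Glul, with the line of equal effects dashed. Globins and most late ubiquitin enzymes lie nearer to 0 on the horizontal axis than on the vertical one, where they are mostly below 0, and neutrophil markers are high on both.

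Many of the genes that were lower in GS-KO were higher with TMM at the end of the study's other series. In the stage series ERY-VI (labelled red blood cells) was set against ERY-IV (labelled orthochromatic erythroblasts), 4 libraries each, with no library in common with the knockout series and with ERY-V, the stage between them, left out. There 480 of 5463 genes tested (8.79%) were higher and 1004 (18.4%) lower with TMM, 27.2% in all, and 47 (0.86%) and 3872 (70.9%) with library totals, 71.7% in all. Of 358 genes lower on both scales in GS-KO that were tested there, 199 (55.6%) were called higher in ERY-VI and 13 (3.63%) lower with TMM, and 39 higher and 189 lower with library totals. Their median log2 fold change was 1.37, where that of all 5391 genes tested in both comparisons was -0.55. With library totals the 2 medians were -1.14 and -3.10. Genes higher on both scales in GS-KO had 40 of 647 (6.18%) called higher in ERY-VI with TMM and a median of 0.15. Bpgm, Alas2 and Bnip3l were higher in ERY-VI on both scales, with log2 fold changes of 4.84, 4.37 and 4.29 with TMM and 2.20, 1.80 and 1.66 with library totals. Klf1 was lower on both, at -3.22 and -5.68. Slc4a1 (0.59, adjusted p = 0.209) and Foxo3 (0.04, adjusted p = 0.941) did not pass with TMM. With library totals both were lower in ERY-VI, at -1.83 and -2.47. Glul was higher in ERY-VI with TMM at 1.14 (adjusted p = 0.0300) and lower with library totals at -1.41, with CPM of 121 ± 32.9 in ERY-VI and 322 ± 36.6 in ERY-IV (SD, n = 4). Without ERY-IV replicate 1, 2 or 4 the number of genes called higher was 302, 301 or 311.

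**Figure D5:**
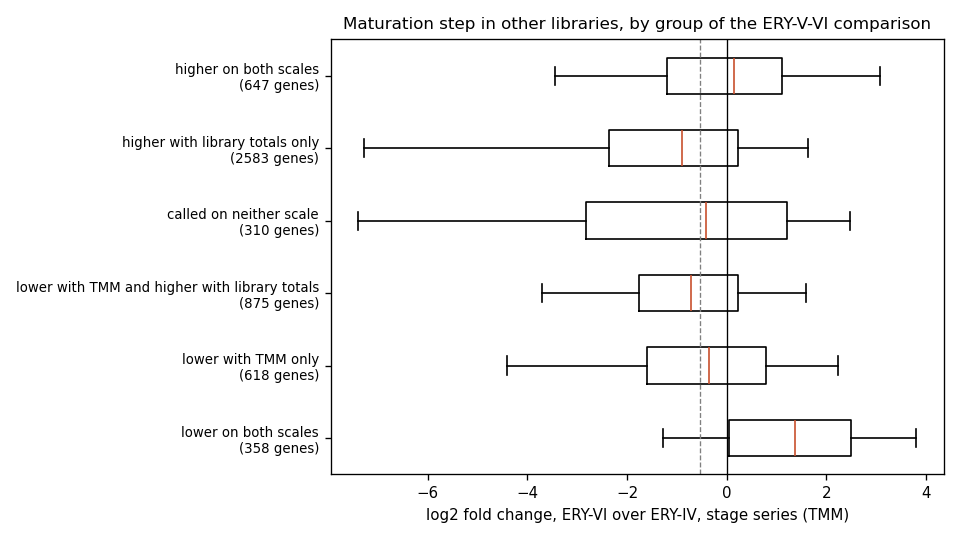
Log2 fold change of ERY-VI over ERY-IV in the stage series (TMM), for genes grouped by their call in GS-KO against WT in ERY-V-VI. Boxes give the quartiles and median, whiskers the 5th to 95th percentile, the solid line 0 and the dashed line the median of all genes tested, and genes lower on both scales, with a median of 1.37, are the group whose box lies above 0.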

How the data were processed

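The RNA-seq kit was stranded, for total RNA in low amounts, per the labels' protocols. Reads were aligned with STAR 2.5.2b and counted with HTSeq on mm10, per the submitters' processing notes. The annotation and strand setting of the counting are not recorded in the labels. The deposited values are raw counts per gene symbol, and no row or column was dropped before scaling. Gene positions come from GENCODE M21, in which 22706 symbols matched 1 gene.

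From the deposited counts, CPM were computed on library totals. GS-KO and WT ERY-V-VI were compared with edgeR 4.0.16 (quasi-likelihood F test, R 4.3.3) after filterByExpr (minimum count 10, total 15) and TMM, with Benjamini-Hochberg adjustment over all genes tested and a threshold of 0.05. The same test gave the difference between gates (12 libraries) and ERY-VI against ERY-IV (8 libraries). TMM factors were 0.636 to 0.642 in WT and 1.56 to 1.57 in GS-KO. Standard errors are the log2 fold change over the root of F. Single values per library were compared by an exact permutation test. The labels do not say what a replicate number shares. In the stage series same-numbered ERY-IV and ERY-VI libraries deviated together (r = 0.15, 0.27, 0.21 and 0.18), so that the replicate block was also fitted.

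The labels define the 6 libraries, and this comparison, the gene lists and the rules were chosen with earlier results of these data known. Named genes were Glul, 13 landmark genes, the 12 highest and 12 lowest called at 2-fold or more among genes whose groups did not overlap and whose mean reached 5 CPM, up to 4 called members per list of those with the largest change, the 6 highest and 6 lowest differences between gates, and list members whose role was needed. Genes whose call turned with a setting serve as examples only where this is said. Fold changes are withheld for genes with 3 or fewer counts summed over a group. Results of some genes that these rules name are not reported here. The tests were checked on simulated data. As alternatives RLE size factors, library totals, DESeq2 1.42.0, leaving out globins or the 10 most abundant genes, other filters, limma-voom with quality weights (limma 3.58.1), the replicate block, all groups in 1 fit, each library left out in turn, and, chosen after seeing the data, triplicates summed were run.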

Additional observations from a re-analysis of the deposited data

Results flagged for a closer look

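The genotype effect, as log2 GS-KO over WT with TMM, was examined in Glul, in landmark genes of the lineage, and in the genes with the 6 highest and 6 lowest differences between ERY-V-VI and ERY-III-VI, which were chosen by that difference. By edgeR's test of the difference itself it differed in 23 of these, 17 with a lower and 6 with a higher effect in ERY-V-VI. With library totals 20 of the 23 were called with the same sign, while Tfrc and Epor changed sign and Kit was not called. Over all 185 genes that the naming rules select, 97 had a lower and 25 a higher effect in ERY-V-VI with TMM. The shares over all genes tested were 14.8 and 9.56%. Some of the rules choose by the change in ERY-V-VI or by this difference, so these counts follow in part from the choice.

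Among the landmark genes the effect in ERY-V-VI minus that in ERY-III-VI was -3.40 for Bpgm, -2.89 for Bnip3l, -2.75 for Alas2, -2.68 for Hbb-b1, -2.59 for Hba-a1, -1.24 for Slc4a1 and -1.27 for Foxo3. It was -0.50 for Epor and -0.48 for Tfrc, the genes that changed sign with library totals. Glul differed by -1.43 with TMM and by -0.38 with library totals. Kit, which rose in both gates, differed by -1.37 with TMM. With library totals its difference was -0.32 and was not called, so its smaller rise in ERY-V-VI rests on the scaling.

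The lowest values among genes chosen for their size came from genes that were higher in GS-KO in ERY-III-VI by a wider margin. They were -4.95 for Olr1, -4.23 for Pik3r5, -3.95 for Ahnak, -3.95 for Pak1, -3.72 for Gas7 and -3.62 for Plac8. The highest were 3.44 for the DNA repair nuclease gene Ercc4, 3.11 for Dennd1b, 3.08 for Zfp229, 3.01 for Chm, 2.94 for Zfp282 and 2.93 for Clpp, a mitochondrial protease. Most of these 12 genes had under 10 CPM in each WT library of ERY-V-VI. White cell marker sums differed between the genotypes in both gates, and their part in these values was not tested.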

How the results depend on the processing

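In ERY-V-VI the scaling set the split of calls, with 7209 higher and 364 lower on library totals, and 6 named genes turned from lower to higher on that scale, Tfrc (0.40), Gata1 (0.81), Klf1 (0.81), Rhag (0.24), Cpox (0.77) and Mki67 (0.70). All groups in 1 fit gave 3791 higher and 3154 lower, and triplicates summed gave 0 and 0. Leaving out 1 library gave 1415 to 2541 higher and 1568 to 2077 lower, and a globin share difference of -12.0 to -11.8 percentage points. Same-numbered GS-KO and WT libraries did not deviate together (r = -0.02, -0.00 and -0.01), and the replicate block gave 1847 higher and 1775 lower.

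For the difference between gates, higher counts were 5665 on library totals, 632 with a mean of at least 5 CPM, 507 with limma-voom, 2097 with all groups in 1 fit and 738 to 1321 without 1 library. Lower counts were 421 on library totals and 1324 to 1722 without 1 library. For ERY-VI against ERY-IV, higher counts were 47 on library totals, 1067 without a filter, 768 with all groups in 1 fit and 301 to 597 without 1 library. Lower counts were 1525 with DESeq2, 3872 on library totals, 1579 without a filter, 1510 with limma-voom, 3623 with all groups in 1 fit and 673 to 1443 without 1 library. The replicate block there gave 407 and 839. The cause of these shifts was not tested. Depth limits genes with few WT counts, where 1 count is 0.211 to 0.319 CPM.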
